A study of Mus musculus with 16 samples.

Results

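Butyrate without inflammation was compared with no addition in mouse islets, by RNA sequencing of 8 of the 16 libraries of the series, 4 from control islets and 4 from islets kept with 0.2 mM butyrate. The 8 libraries were chosen by their labels alone, as all libraries without IL-1β, and all genes were considered. Islets came from 12-week-old male mice labelled C57BL/6JRj (the study's methods name C57BL/6NRj), which carried no transgene and no deletion. They were pooled from several mice and kept in culture, 500 per condition, over 10 days in RPMI medium with human serum and antibiotics, either as they were or with sodium butyrate. There were 4 independent experiments, and the labels number the libraries of each condition 1 to 4 without saying that a number marks an experiment. A library holds a pool of islets, so the p-values measure the spread between such pools, not between mice. The other 8 libraries had 50 pg/ml of the cytokine IL-1β, 4 of them together with the same dose of butyrate, and enter the text only where the effect of butyrate is set beside its effect in inflamed islets.

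Islets of Langerhans are the endocrine clusters of the pancreas, in which insulin-secreting beta cells outnumber glucagon-secreting alpha cells and somatostatin-secreting delta cells. Butyrate is a short-chain fatty acid that gut bacteria make from dietary fibre. It inhibits members of the zinc-dependent histone deacetylase family. It is also a ligand of the cell surface receptors FFAR2 and FFAR3, and mitochondria burn it as a fuel. Inhibitors of histone deacetylases are known in many cell types to arrest proliferation and to switch on genes that the cell normally keeps silent.

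Total counts per library ran from 21311240 to 24822759 in control islets and from 20148282 to 23633666 with butyrate, so depth did not separate the groups. *Ins2*, an insulin gene, took 13.4% to 15.1% of all counts in control islets and 14.4% to 16.7% with butyrate, and *Gcg*, which encodes glucagon, took 1.91% to 2.25% and 1.76% to 2.04%, as the label of islets requires. Principal component analysis of these 8 libraries put 60.5% of the variance on the first axis, with the control libraries from -21.6 up to -18.0 and the butyrate libraries between 16.9 and 21.9. The second axis took 12.0%, and on it control replicate 1 (16.7) and butyrate replicate 1 (11.1) stood apart from the other 6 libraries, which lay between -9.43 and -0.601.

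Of 18587 genes with enough counts to be tested, 3697 (19.9%) changed with butyrate, which means here an adjusted p under 0.01 in edgeR's quasi-likelihood test (edgeR FDR). Butyrate raised 1585 of them (8.53% of the genes tested) and lowered 2112 (11.4%). The balance between the directions depended on the scaling, as the raised genes made up 42.9% of the changed genes with TMM scaling and 58.5% with upper-quartile scaling. Each call was repeated under those of 17 alternatives that tested the gene. They were the scaling, DESeq2, no filter on low counts, a replicate block and a threshold of 0.05. The 8 libraries alone, with and without the block, and leaving out each of the 8 libraries were the others. The alternatives that moved the call of a named gene are given beside it. Most changes were small. The median size of a change was 0.39 on the log2 scale, and 549 genes (2.95%) changed at least 2-fold, of which 282 (1.52%) were raised and 267 (1.44%) were lowered. Among the largest changes the lowered genes prevailed, since 78 genes fell at least 4-fold and 33 rose as much. The CPM (counts scaled to a common library size by TMM) of the control and butyrate libraries did not overlap for 3544 of the changed genes, against 5593 (30.1%) of all genes tested.

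**Figure D1:**
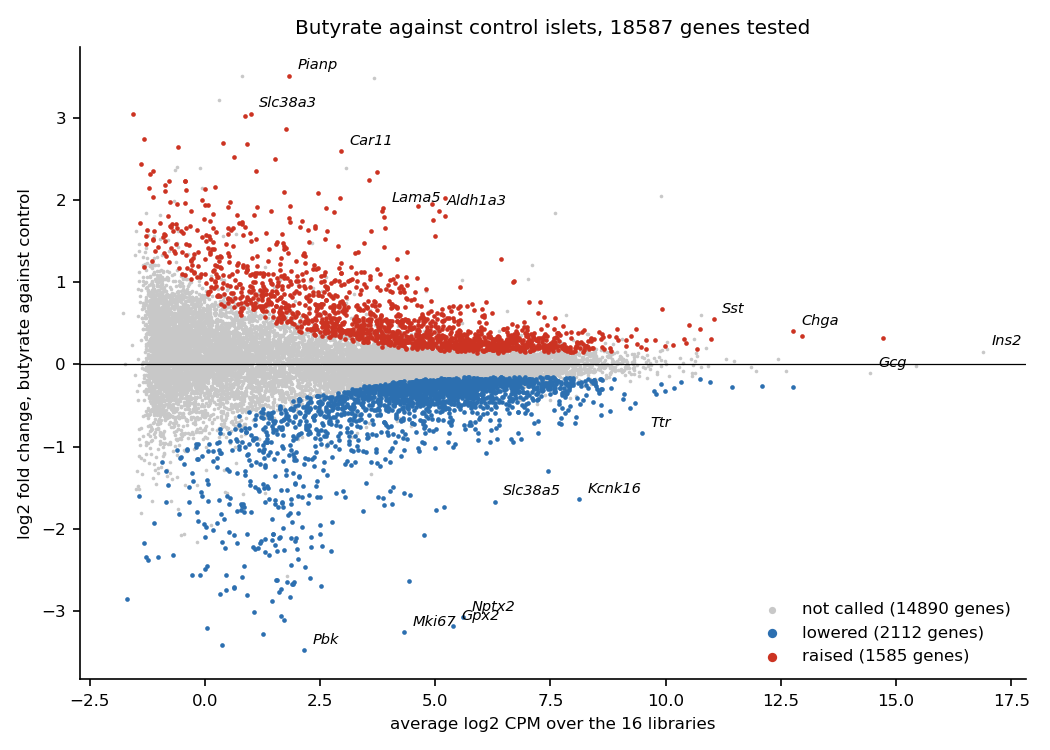
Log2 fold change of each tested gene with butyrate against control (vertical axis) over its average log2 CPM in the 16 libraries (horizontal axis), with raised genes in red, lowered genes in blue and genes not called in grey. The 1585 raised and 2112 lowered genes spread over the whole range of expression, and *Ins2*, the most abundant gene labelled, lies near 0.

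Called genes that were almost silent in control islets were mostly raised, a direction that their choice by control level favours. Of 2069 tested genes with a mean below 0.5 CPM in control islets, 90 (4.35%) were raised and 4 (0.193%) were lowered, whereas of 7309 genes between 10 and 100 CPM, 665 were raised and 1314 were lowered. A gene that low has little room to fall in these counts, so the 2 directions are not equally open to it. The filter on low counts used the 4 conditions as groups, so such a gene may pass only through a group where it is higher. No direction is therefore read from the 90 and 4. Of 4003 genes with an average log2 CPM under 0 over the 16 libraries, 79 (1.97%) were raised and 36 (0.899%) lowered. The genes with few counts named next share these limits. In control islets 42 tested genes had at most 3 counts in every library, and 8 of them, all protein-coding, were raised. Counts of *Gipc3* were 1 to 3 in the control libraries and 8 to 15 in those with butyrate, *2410004P03Rik* had 1 or 2 and 10 to 14, *Ccdc106* had 1 or 2 and 8 to 10, and *Notum*, which encodes a secreted enzyme that inactivates Wnt proteins, had 1 and 5 to 13. In the other direction 4 genes were at or under 3 counts in every butyrate library and were lowered, among them *Sprr1a*, with 5 to 24 counts in control islets and 0 to 2 with butyrate, and *Itm2a*, with 10 to 16 and 1 or 2.

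The largest rises, taken among called genes whose groups did not overlap and whose average log2 CPM was 1 or more, were those of 12 genes of different functions. *Pianp* (ENSMUSG00000030329, chromosome 6 from 124996694 to 125003096), which encodes a neuronal membrane protein that binds the PILRα receptor, had 0.560, 0.292, 0.525 and 0.471 CPM in control islets and 6.13, 6.04, 4.39 and 4.60 CPM with butyrate (log2 fold change 3.52, SE 0.22, edgeR FDR = 2.3e-12). *Slc38a3* (ENSMUSG00000010064, chromosome 9 from 107650634 to 107669530), a glutamine transporter gene, had 0.467, 0.542, 0.525 and 0.471 CPM in control islets and 4.97, 3.91, 3.29 and 4.65 CPM with butyrate (log2 fold change 3.06, SE 0.22, edgeR FDR = 6.5e-11). Every butyrate library of both genes was several times above every control library. *Cd248* (endosialin), a surface protein of stromal cells, rose from 0.769 ± 0.18 to 5.65 ± 0.35 CPM, *Car11*, which encodes a carbonic anhydrase-related protein without enzyme activity, from 2.03 ± 0.051 to 12.3 ± 0.73 CPM, and *Olfm2* (olfactomedin 2) from 0.939 ± 0.20 to 5.32 ± 0.72 CPM. *B4galnt1*, which makes complex gangliosides, rose from 0.462 ± 0.20 to 2.36 ± 0.16 CPM, *Igf2*, a fetal growth factor, from 4.32 ± 1.1 to 21.9 ± 2.0 CPM, and *Slco1a5*, an organic anion transporter gene, from 5.40 ± 0.16 to 25.7 ± 2.8 CPM. The list of 12 closed with *Hspb1* (a small heat shock protein), *Fgf11*, *Ache* (acetylcholinesterase) and *Mapk13* (a p38 kinase), with log2 fold changes between 2.02 and 2.10. *Igf2*, *Ache* and *B4galnt1* share exon bases with another annotated gene, and since the strand setting of the counting was not stated, their reads could not be assigned with certainty.

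Of the 12 largest falls, 8 were genes of cell division. *Pbk*, a mitotic kinase gene, fell by the most (log2 fold change -3.48, SE 0.41, edgeR FDR = 2.5e-05), followed among the division genes by *Mki67*, which encodes the proliferation marker Ki-67 (log2 fold change -3.26, SE 0.41, edgeR FDR = 5.6e-05). *Nek2*, *Ube2c*, *Kif4*, *Ckap2*, *Ckap2l* and *Gtse1*, which act on the centrosome, the spindle or the degradation of mitotic proteins, had log2 fold changes from -3.11 to -2.73. *Nek2*, *Ube2c*, *Kif4* and *Ckap2l* share exon bases with another annotated gene, with the same limit. The remaining 4 were not division genes. *Ddias*, which is linked to DNA damage and apoptosis, fell from 3.96 ± 1.4 to 0.402 ± 0.055 CPM (log2 fold change -3.29, SE 0.27, edgeR FDR = 5.4e-10). *Gpx2*, a glutathione peroxidase gene (ENSMUSG00000042808, chromosome 12 from 76792333 to 76795554), had 63.5, 68.9, 53.4 and 57.7 CPM in control islets and 6.08, 6.80, 7.21 and 6.62 CPM with butyrate (log2 fold change -3.19, SE 0.14, edgeR FDR = 2.6e-10). *Nptx2* (ENSMUSG00000059991, chromosome 5 from 144545902 to 144557478), which encodes a secreted neuronal pentraxin, had 149, 138, 117 and 108 CPM in control islets and 16.6, 15.2, 16.6 and 12.5 CPM with butyrate (log2 fold change -3.08, SE 0.34, edgeR FDR = 1.8e-05). *Chil6*, a chitinase-like gene, fell from 5.49 ± 0.73 to 0.732 ± 0.19 CPM (log2 fold change -2.88, SE 0.20, edgeR FDR = 1.6e-11). The butyrate libraries of the last 3 genes lay far below the control libraries and close to each other.

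**Figure D2:**
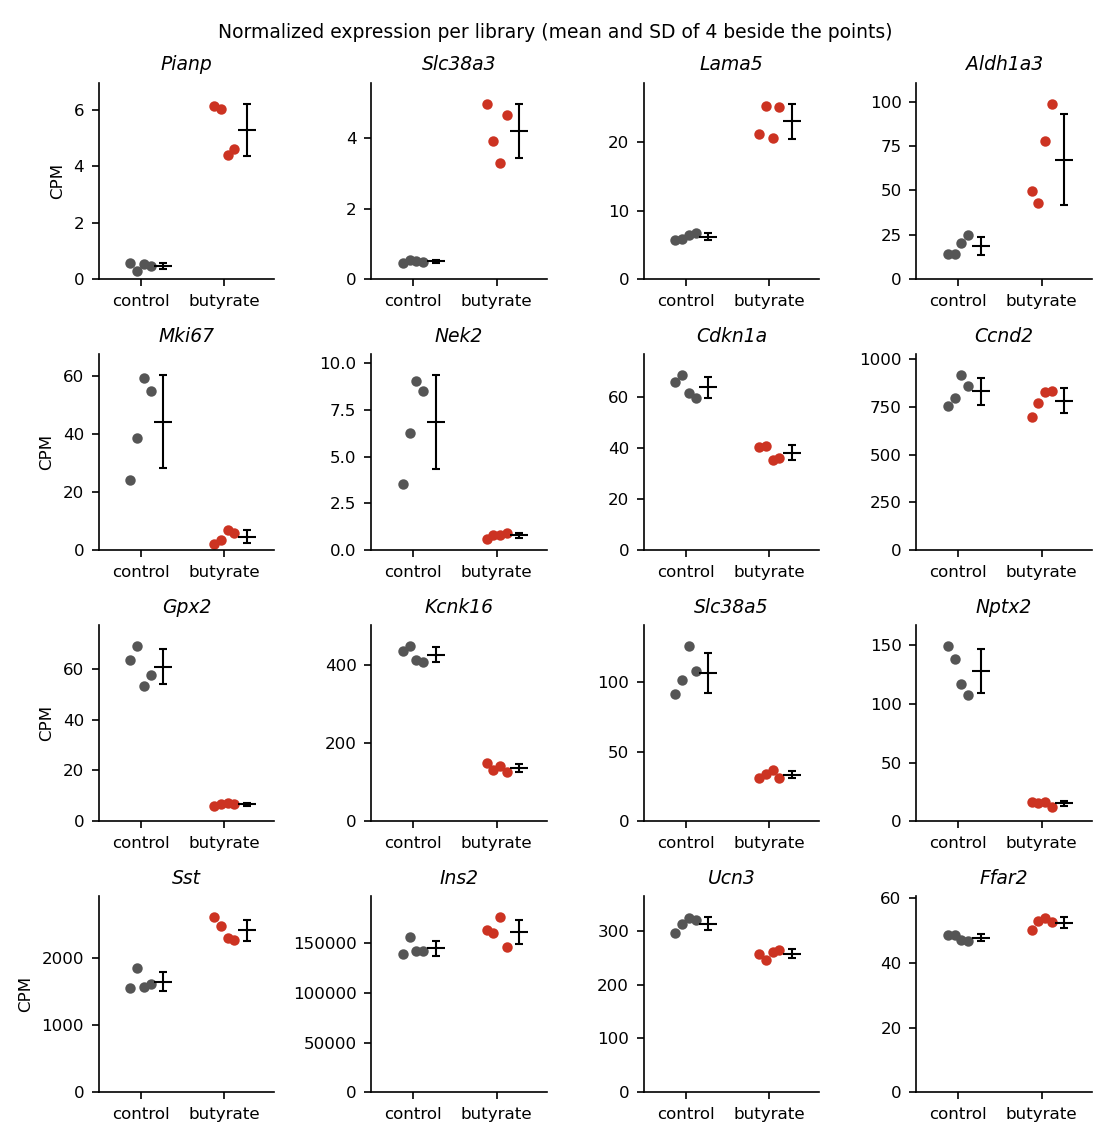
CPM of 16 genes in each of the 4 control libraries (grey) and 4 butyrate libraries (red), with the mean and SD of each group as a bar beside the points and each vertical axis starting at 0. The groups are fully apart for *Pianp*, *Slc38a3*, *Mki67*, *Gpx2*, *Kcnk16* and *Nptx2*, and overlap for *Ccnd2* and *Ins2*.

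Lists of genes grouped by function, written for this tissue and treatment, were counted against the shares of all tested genes given above. Counts of 3 genes or fewer in these lists moved by up to 2 genes with the scaling or with 1 library left out, so no direction is read from them. The mitosis list stood furthest from the background. Of its 64 genes, all tested, 60 (93.8%) were lowered, 51 of them at least 2-fold, and the median log2 fold change of the list was -1.83, against 0.01 for all genes tested. *Mki67* (ENSMUSG00000031004, chromosome 7 from 135689784 to 135716361) had 24.1, 38.7, 59.2 and 54.9 CPM in control islets and 2.26, 3.33, 7.11 and 5.85 CPM with butyrate. Even the lowest control library stood far above the highest butyrate library. *Spc25* (a kinetochore protein), *Bub3* (a spindle checkpoint protein) and *Smc4* (a condensin subunit) were the most abundant genes of the list and fell less, with log2 fold changes of -0.83, -0.28 and -0.96. *Pttg1*, which encodes securin, was the 1 gene that went up, from 6.97 ± 0.17 to 10.5 ± 0.73 CPM (log2 fold change 0.59, SE 0.09, edgeR FDR = 1.4e-05). In bulk islets fewer dividing cells and less of each RNA per dividing cell cannot be told apart.

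Control replicate 1 had the lowest level of the 4 control libraries for 60 of the 64 mitosis genes. Relative to each gene's control mean, the median of the list was -0.57 on the log2 scale in this library, -0.05 in control replicate 2, 0.34 in control replicate 3 and 0.30 in control replicate 4, and it was between -1.89 and -1.55 in the butyrate libraries. The control libraries therefore differed by nearly 1 unit among themselves, and the butyrate libraries still lay about 1 unit below the lowest of them. Without control replicate 1 the list had 61 of 64 genes lowered with a median of -1.98.

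**Figure D3:**
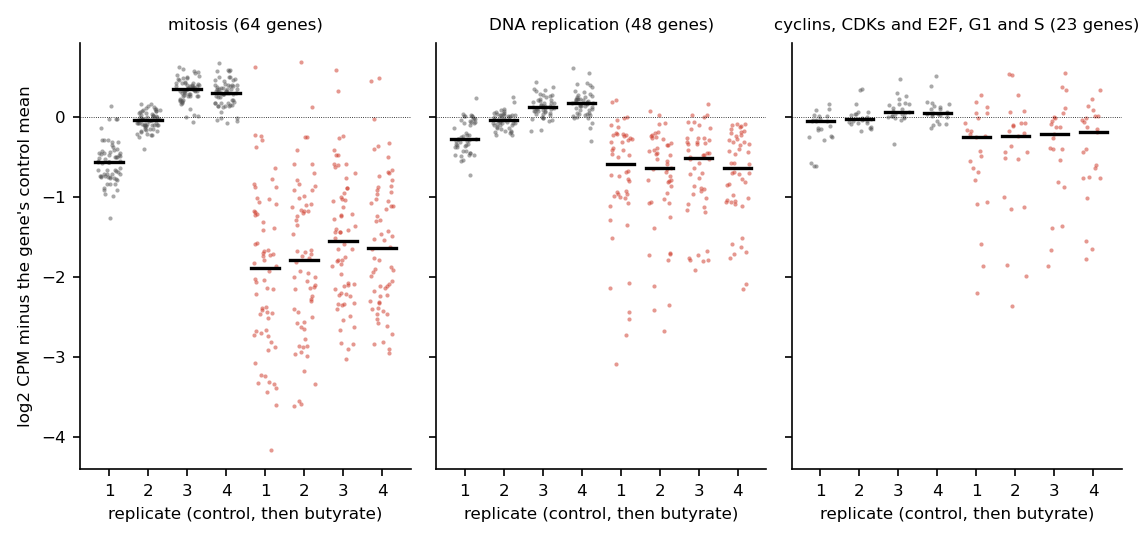
Log2 CPM minus the gene's own control mean for each gene (point) of the mitosis, DNA replication and G1/S lists in control libraries 1 to 4 (grey) and butyrate libraries 1 to 4 (red), with the median of each library as a black line. The mitosis medians fall from between -0.57 and 0.34 in control islets to between -1.89 and -1.55 with butyrate, those of DNA replication less, and those of the G1/S list least.

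Genes of DNA replication followed with smaller changes. Of 48 genes, 35 (72.9%) were lowered, with a median of -0.59, and 13 fell at least 2-fold. *Cdc6*, which loads the replicative helicase, fell from 4.87 ± 1.4 to 1.00 ± 0.28 CPM (log2 fold change -2.29, SE 0.24, edgeR FDR = 7.3e-08), *Mcm5*, a subunit of that helicase, from 12.5 ± 3.2 to 2.58 ± 0.72 CPM (log2 fold change -2.27, SE 0.20, edgeR FDR = 1.1e-07), and *Clspn* (claspin), a replication checkpoint protein, from 5.70 ± 2.1 to 1.17 ± 0.52 CPM (log2 fold change -2.27, SE 0.30, edgeR FDR = 1.4e-05). The abundant *Dnmt1*, the maintenance DNA methyltransferase, fell by 0.24 on the log2 scale, and *Rpa1*, a single-strand binding protein, was not called (-0.06, edgeR FDR = 0.34).

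Cyclins, cyclin-dependent kinases and E2F factors of G1 and S divided by gene. Of 23 tested, 12 (52.2%) were lowered. *E2f8*, *Ccna2* (cyclin A2), *E2f7*, *E2f2* and *Myc* fell at least 2-fold, with log2 fold changes of -2.06, -1.95, -1.74, -1.04 and -1.01. The cyclin D genes that dominate in islets were not called, *Ccnd2* at 831 ± 71 to 782 ± 64 CPM (-0.09, edgeR FDR = 0.38) and *Ccnd1* at 171 ± 13 to 151 ± 3.4 CPM (-0.18, edgeR FDR = 0.018), nor was *Cdk4* (-0.08, edgeR FDR = 0.18). *Ccnd1* was called in 6 of 17 alternatives (with library size only, without the filter, with the block, at 0.05, in the 8 libraries alone and in the 8 libraries with the block, lowest edgeR FDR = 0.0011).

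The inhibitors of the cell cycle did not rise as a group. *Cdkn1a* (ENSMUSG00000023067, chromosome 17 from 29090976 to 29100727) encodes p21, a cyclin-dependent kinase inhibitor that p53 and histone deacetylase inhibitors raise in many cultured cells. It had 65.9, 68.5, 61.5 and 59.4 CPM in control islets and 40.6, 41.0, 35.1 and 36.3 CPM with butyrate (log2 fold change -0.74, SE 0.08, edgeR FDR = 4.4e-07), so each butyrate library lay below each control library. *Cdkn2c* (p18) also fell, from 14.5 ± 3.4 to 6.98 ± 0.42 CPM (log2 fold change -1.05, SE 0.16, edgeR FDR = 7.9e-05), while *Cdkn1c* (p57) rose from 0.577 ± 0.28 to 1.29 ± 0.28 CPM (log2 fold change 1.15, SE 0.30, edgeR FDR = 0.0037), and *Cdkn1b* (p27) was at 118 ± 3.1 to 119.7 ± 5.6 CPM (0.02, edgeR FDR = 0.82). Of 24 targets of p53, 10 (41.7%) were lowered and 1 was raised, with a median of -0.20. Among the lowered were *Pmaip1* (Noxa), from 1.43 ± 0.63 to 0.254 ± 0.10 CPM (log2 fold change -2.45, SE 0.40, edgeR FDR = 2.9e-05), *Eda2r*, from 2.94 ± 0.23 to 0.933 ± 0.18 CPM (log2 fold change -1.65, SE 0.18, edgeR FDR = 5.7e-08), *Phlda3*, from 7.29 ± 0.69 to 2.89 ± 0.56 CPM (log2 fold change -1.34, SE 0.16, edgeR FDR = 8.1e-07), and the abundant *Ccng1*, from 154 ± 11 to 93.8 ± 9.6 CPM (log2 fold change -0.72, SE 0.10, edgeR FDR = 4.9e-05). *Cdkn1c* lost the call in 3 of 17 alternatives (without control replicate 1 or 4 or butyrate replicate 3, highest edgeR FDR = 0.022).

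The start regions of the mitosis genes held short sequences that the choice of the list did not use. In promoters from RefSeq (GRCm38.p6, 250 bases before to 50 after the start, first window of each gene), of which 12545 matched a tested gene, TTTGAA, the core of the cell cycle genes homology region, was found on either strand in 37 of 55 mitosis promoters (67.3%), in 77 of 208 promoters of genes lowered at least 2-fold (37.0%), in 30 of 202 of genes raised at least 2-fold (14.9%) and in 12.4% of all. CCAAT, the core bound by NF-Y, was found in 40 of 55 mitosis promoters (72.7%) and in 38.3% of all. TTTNNCGC, a core of E2F sites, was in 16 of 39 DNA replication promoters (41.0%), 10 of 55 mitosis promoters (18.2%) and 7.98% of all. The GC box GGGCGG was in 60.9% of promoters of genes raised at least 2-fold, 59.1% of those lowered as much and 59.9% of all. Matches of different motifs may overlap, as may CCAAT matches on opposite strands, and none was left out for it. The same genes that fell gave the counts for lowered promoters and for the mitosis list, so these shares are not separate observations. The 250 bases before the start follow for the 3 mitosis genes with the largest falls among those with a window, written 5′ to 3′ on the strand of the gene, with CCAAT and TTTGAA on either strand in capitals.

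Mki67 chr7:135716380-135716629 (minus strand): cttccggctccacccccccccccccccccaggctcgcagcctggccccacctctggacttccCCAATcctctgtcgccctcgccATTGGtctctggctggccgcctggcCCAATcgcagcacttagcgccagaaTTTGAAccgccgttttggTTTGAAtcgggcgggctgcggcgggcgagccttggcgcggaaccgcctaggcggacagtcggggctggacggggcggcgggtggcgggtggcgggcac

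Nek2 chr1:191821223-191821472 (plus strand): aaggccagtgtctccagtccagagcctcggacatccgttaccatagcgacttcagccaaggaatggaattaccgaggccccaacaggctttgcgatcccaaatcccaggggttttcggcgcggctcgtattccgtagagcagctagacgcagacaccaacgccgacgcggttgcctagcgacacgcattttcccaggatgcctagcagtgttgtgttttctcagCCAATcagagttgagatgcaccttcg

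Ube2c chr2:164769679-164769928 (plus strand): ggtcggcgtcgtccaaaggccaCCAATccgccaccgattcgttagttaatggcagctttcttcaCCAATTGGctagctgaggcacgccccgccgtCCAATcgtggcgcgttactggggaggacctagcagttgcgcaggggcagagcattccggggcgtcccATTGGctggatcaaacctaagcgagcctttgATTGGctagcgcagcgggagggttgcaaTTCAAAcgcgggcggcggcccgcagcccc

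The window of *Mki67* held 3 CCAAT and 2 TTTGAA matches, that of *Ube2c* 6 and 1, counting overlapping matches separately, and that of *Nek2* 1 and 0. The 3 genes fell by similar amounts. The same stretch is shown for *Cdkn1a*, which is known to rise with histone deacetylase inhibitors and fell here, for *Gpx2*, which fell, and for *H1f0*, a rise described below, with GGGCGG and CCAAT in capitals.

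Cdkn1a chr17:29093519-29093768 (plus strand): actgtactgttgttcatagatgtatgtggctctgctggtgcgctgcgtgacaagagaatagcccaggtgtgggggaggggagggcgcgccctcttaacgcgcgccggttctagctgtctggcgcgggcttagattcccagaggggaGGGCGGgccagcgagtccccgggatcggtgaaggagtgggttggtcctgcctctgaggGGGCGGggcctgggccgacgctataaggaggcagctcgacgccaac

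Gpx2 chr12:76795555-76795804 (minus strand): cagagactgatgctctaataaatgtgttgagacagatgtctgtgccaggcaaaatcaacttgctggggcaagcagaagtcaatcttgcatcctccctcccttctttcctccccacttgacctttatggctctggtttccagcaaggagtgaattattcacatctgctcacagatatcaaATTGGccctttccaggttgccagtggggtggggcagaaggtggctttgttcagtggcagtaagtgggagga

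H1f0 chr15:79027962-79028211 (plus strand): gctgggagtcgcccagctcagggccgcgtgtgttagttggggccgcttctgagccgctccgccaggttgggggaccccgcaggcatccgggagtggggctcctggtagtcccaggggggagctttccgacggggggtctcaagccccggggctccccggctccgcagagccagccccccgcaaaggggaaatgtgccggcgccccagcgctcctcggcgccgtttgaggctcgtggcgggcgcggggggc

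The *Cdkn1a* window shown, 1 of 2 listed for the gene, held 2 GC boxes and 0 CCAAT, and the other had neither. The *Gpx2* window held 1 CCAAT and 0 GC boxes, and the *H1f0* window had neither. A match is a string of letters, not a bound site, and a window without one says only that these letters are not in it.

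Machinery of histone acetylation changed in small steps. *H1f0*, which encodes the linker histone H1.0 and responds to histone deacetylase inhibitors in many cells, had 178, 186, 174 and 172 CPM in control islets and 243, 229.5, 240.1 and 216 CPM with butyrate (log2 fold change 0.39, SE 0.05, edgeR FDR = 2.2e-06), every butyrate library above every control library. Of 34 tested histone genes 3 were raised and 6 lowered. Of 18 histone deacetylases and sirtuins, 4 were raised (2 with library size only, without control replicate 2 or without butyrate replicate 4, and 1 without butyrate replicate 3), *Sirt4* from 12.8 ± 0.46 to 21.3 ± 0.74 CPM (log2 fold change 0.73, SE 0.07, edgeR FDR = 5.1e-09), *Sirt3* (0.28), *Sirt2* (0.22) and *Hdac2* (0.19), and 2 were lowered, *Sirt1* (-0.39) and *Hdac6* (-0.17). Of 19 acetyltransferases and acetyl-lysine readers, 9 (47.4%) were lowered and 1 was raised, with a median of -0.11. With upper-quartile scaling 6 were lowered and the median was -0.06. The acetyltransferases *Kat6b* (-0.45), *Kat2b* (-0.42) and *Ep300* (-0.27) were among those lowered, the abundant reader *Brd2* was not called (-0.11, edgeR FDR = 0.096), and the coactivator *Ncoa3* was raised (0.30). *Sirt3* lost the call in 4 of 17 alternatives (with library size only and without control replicate 2 or butyrate replicate 3 or 4, highest edgeR FDR = 0.019). *Sirt2* lost the call in 4 of 17 alternatives (with library size only and without control replicate 1 or butyrate replicate 3 or 4, highest edgeR FDR = 0.025). *Hdac2* lost the call in 7 of 17 alternatives (without the filter and without control replicate 2, 3 or 4 or butyrate replicate 1, 2 or 3, highest edgeR FDR = 0.022). *Hdac6* lost the call in 7 of 17 alternatives (with upper-quartile scaling and without control replicate 1, 3 or 4 or butyrate replicate 2, 3 or 4, highest edgeR FDR = 0.038). *Ep300* lost the call in 2 of 17 alternatives (with upper-quartile scaling and without butyrate replicate 3, highest edgeR FDR = 0.012).

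The receptors for butyrate were present and were not called at the threshold of 0.01. *Ffar2* had 48.8, 48.8, 47.2 and 46.7 CPM in control islets and 50.3, 53.1, 54.1 and 52.7 CPM with butyrate (log2 fold change 0.13, SE 0.07, edgeR FDR = 0.13) and *Ffar3* had 21.4 to 23.7 CPM in control islets and 23.9 to 28.3 CPM with butyrate (log2 fold change 0.17, SE 0.06, edgeR FDR = 0.047). For both genes all butyrate libraries were above all control libraries, by small margins. Of 17 tested genes of short-chain fatty acid sensing and use, 4 (23.5%) were raised, with a median of 0.27. The raised ones were enzymes that break down or activate short fatty acids. *Hadh*, an oxidation enzyme for short-chain substrates that beta cells express strongly, rose from 374 ± 9.5 to 493 ± 26 CPM (log2 fold change 0.40, SE 0.05, edgeR FDR = 9.6e-07), *Acads*, the short-chain acyl-CoA dehydrogenase for which butyryl-CoA is the substrate, from 12.7 ± 0.58 to 16.6 ± 1.0 CPM (log2 fold change 0.39, SE 0.07, edgeR FDR = 5.4e-05), *Acat1* from 115 ± 4.0 to 138 ± 3.8 CPM (log2 fold change 0.27, SE 0.05, edgeR FDR = 0.00013), and *Acss2*, a cytosolic acetyl-CoA synthetase, from 24.7 ± 1.3 to 31.6 ± 1.0 CPM (log2 fold change 0.36, SE 0.06, edgeR FDR = 1.4e-05). *Ffar2* was called in 1 of 17 alternatives (in the 8 libraries with the block, lowest edgeR FDR = 0.0092). *Ffar3* was called in 4 of 17 alternatives (with upper-quartile scaling, with the block, at 0.05 and in the 8 libraries with the block, lowest edgeR FDR = 0.0059).

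**Figure D4:**
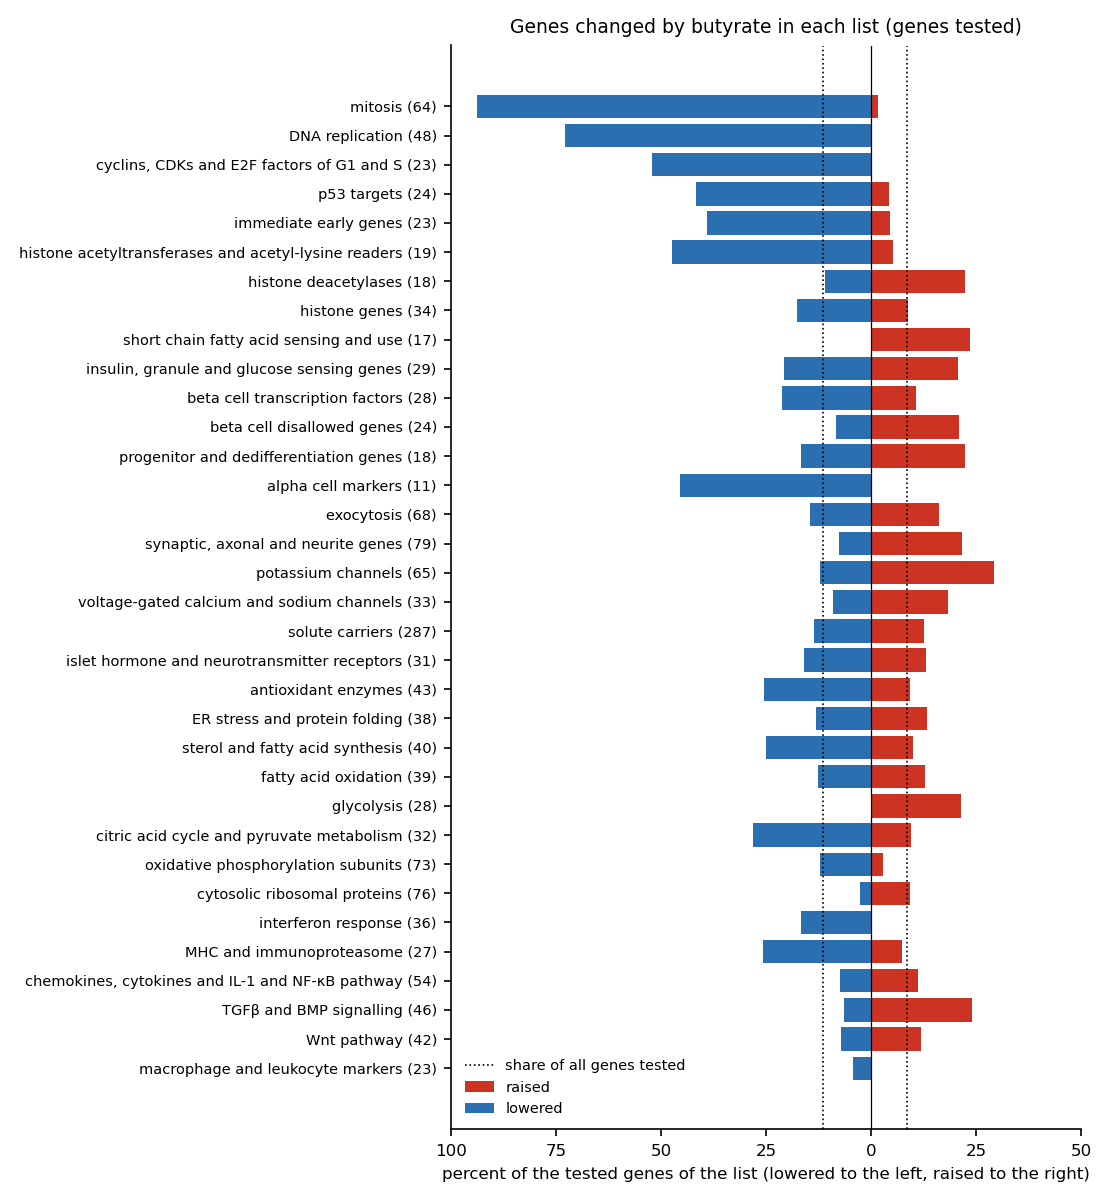
Percent of the tested genes of each list (number tested in parentheses) that butyrate raised (red, to the right) or lowered (blue, to the left), with dotted lines at the shares of all genes tested, 8.53% raised and 11.4% lowered. The mitosis list reaches 93.8% lowered, and potassium channels reach 29.2% raised.

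Genes of insulin, its granules and glucose sensing went both ways by less than 2-fold. Of 29 genes 6 were raised and 6 lowered. *Ins1* and *Ins2* were not called, with 51508 ± 3029 to 50968 ± 4145 CPM and 145137 ± 7863 to 161875 ± 12178 CPM and log2 fold changes of -0.02 (SE 0.07) and 0.16 (SE 0.08). Granule proteins were raised, namely *Chga* (chromogranin A) from 5971 ± 161 to 7926 ± 353 CPM (log2 fold change 0.41, SE 0.06, edgeR FDR = 1.1e-05), *Scg2* (secretogranin II) from 7902 ± 171 to 10033 ± 332 CPM (log2 fold change 0.34, SE 0.06, edgeR FDR = 6.3e-05) and *Iapp* (amylin) from 21969.9 ± 1269.9 to 27354 ± 1279 CPM (log2 fold change 0.32, SE 0.07, edgeR FDR = 0.0011). So were *Ero1lb*, an oxidase that helps proinsulin fold (0.43), and *Abcc8*, the sulphonylurea receptor subunit of the KATP channel (0.31), whereas its partner *Kcnj11* was not called (0.08, edgeR FDR = 0.18). Enzymes that process prohormones were lowered. *Pcsk1* fell from 843 ± 59.6 to 672 ± 42 CPM (log2 fold change -0.33, SE 0.06, edgeR FDR = 0.00020), *Cpe* from 6416 ± 392 to 5298 ± 228 CPM (log2 fold change -0.28, SE 0.06, edgeR FDR = 0.00086) and *Pam* from 807 ± 36 to 646 ± 43 CPM (log2 fold change -0.32, SE 0.05, edgeR FDR = 1.9e-05). *Ucn3* (urocortin 3), a marker of mature beta cells, had 296, 312, 323 and 319 CPM in control islets and 257, 245, 259.9 and 265 CPM with butyrate (log2 fold change -0.28, SE 0.05, edgeR FDR = 0.00011), without overlap. *Slc2a2* and *Slc30a8*, the glucose transporter and the granule zinc transporter, were not called, with log2 fold changes of 0.03 and -0.04. *Ero1lb* lost the call in 1 of 17 alternatives (without the filter, highest edgeR FDR = 0.024).

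Of 28 transcription factors of beta cells, 3 were raised and 6 lowered, a split that was 4 and 4 with upper-quartile scaling and 1 and 4 without butyrate replicate 2. *Foxo1* rose from 80.7 ± 5.1 to 108 ± 5.9 CPM (log2 fold change 0.43, SE 0.05, edgeR FDR = 2.6e-07) and *Pdx1*, the beta cell master regulator, from 209.9 ± 8.1 to 242 ± 10.1 CPM (log2 fold change 0.21, SE 0.05, edgeR FDR = 0.0013). *Hnf4a* (-0.52), *Etv1* (-0.44), *Isl1* (-0.38) and *Mlxipl* (-0.30), which encodes the glucose-responsive factor ChREBP, were lowered, and *Nr4a1*, a nuclear receptor of the immediate early response, fell from 24.1 ± 1.5 to 12.0 ± 1.8 CPM (log2 fold change -1.02, SE 0.10, edgeR FDR = 1.4e-07). *Mafa*, *Nkx6-1* and *Pax6* were not called, with log2 fold changes of -0.03 (SE 0.18), 0.10 and -0.03. *Pdx1* lost the call in 1 of 17 alternatives (without butyrate replicate 2, highest edgeR FDR = 0.011). *Mlxipl* lost the call in 6 of 17 alternatives (with upper-quartile scaling, with library size only and without control replicate 1 or 3 or butyrate replicate 2 or 3, highest edgeR FDR = 0.028).

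Among genes that beta cells normally keep silent or express in immature states, single members rose strongly. *Aldh1a3* (ENSMUSG00000015134, chromosome 7 from 66390890 to 66427517), which makes retinoic acid and is a marker of dedifferentiated beta cells, had 14.3, 14.3, 20.2 and 24.9 CPM in control islets and 49.8, 42.9, 78.0 and 98.7 CPM with butyrate (log2 fold change 1.87, SE 0.27, edgeR FDR = 0.00016). The butyrate libraries were all above the control libraries and varied among themselves more than 2-fold. Of the 18 tested genes of the progenitor and dedifferentiation list 4 were raised and 3 lowered, and besides *Aldh1a3* the changes were under 2-fold, with *Neurog3* from 5.67 ± 0.36 to 7.15 ± 0.82 CPM (log2 fold change 0.33, SE 0.09, edgeR FDR = 0.0073) and *Prom1*, lowered, from 248 ± 10.4 to 151 ± 18 CPM (log2 fold change -0.72, SE 0.09, edgeR FDR = 8.5e-06). Of 24 disallowed genes of the beta cell, 5 (20.8%) were raised and 2 lowered. The raised ones stayed at low levels. In bulk islets the cells that held the RNA of these genes were not told apart, and *Pdgfra* is also a listed fibroblast, stellate and pericyte marker. *Pdgfra* went from 0.204 ± 0.10 to 0.715 ± 0.11 CPM, *Ndrg2* from 0.574 ± 0.30 to 1.62 ± 0.39 CPM, *Igfbp4* from 1.36 ± 0.52 to 3.47 ± 0.19 CPM, *Fgf1* from 5.00 ± 1.2 to 9.60 ± 0.25 CPM and *Yap1* from 1.28 ± 0.34 to 2.36 ± 0.15 CPM. *Neurog3* lost the call in 9 of 17 alternatives (with library size only, by DESeq2, without the filter, in the 8 libraries alone and without control replicate 2, 3 or 4 or butyrate replicate 1 or 4, highest edgeR FDR = 0.043).

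Potassium channel genes were raised more often than all genes tested (8.53%). Of 65 tested potassium channel genes, 19 (29.2%) were raised and 8 (12.3%) lowered, with a median of 0.19, and the lowered count was 5 without butyrate replicate 4. Over the alternatives at 0.01 the raised count ran from 13 to 21 and the median from 0.07 to 0.24. Relative to each gene's control mean, the median of the list was -0.03 in butyrate replicate 1, within the control libraries (-0.06 to 0.05). It was 0.15, 0.17 and 0.21 in butyrate replicates 2, 3 and 4. *Kcna7* rose from 0.469 ± 0.26 to 3.09 ± 0.38 CPM (log2 fold change 2.68, SE 0.25, edgeR FDR = 5.3e-09), *Kcnq1* from 0.449 ± 0.20 to 1.37 ± 0.41 CPM and *Kcnf1* from 17.5 ± 4.5 to 35.6 ± 5.9 CPM (log2 fold change 1.02, SE 0.21, edgeR FDR = 0.0020), and *Kcnj9* had 1 or 2 counts per control library and 4 to 9 with butyrate. The most abundant channel gene of the list went the other way. *Kcnk16* (ENSMUSG00000023387, chromosome 14 from 20261376 to 20269199), which encodes TALK-1, a background potassium channel strongly expressed in islets, had 436, 448, 412 and 408 CPM in control islets and 149, 131, 142 and 126 CPM with butyrate (log2 fold change -1.64, SE 0.06, edgeR FDR = 6.5e-17), a 3.11-fold fall with no overlap and little spread. *Kcnk13* and *Kcnb2* were also lowered, the latter from 22.2 ± 0.49 to 12.1 ± 1.4 CPM (log2 fold change -0.87, SE 0.08, edgeR FDR = 1.7e-09). Of 33 voltage-gated calcium and sodium channel genes, 6 (18.2%) were raised and 3 lowered, with 1 lowered under upper-quartile scaling, without control replicate 1 or without butyrate replicate 3. *Cacna1g*, a T-type calcium channel, rose from 2.49 ± 0.41 to 9.51 ± 0.95 CPM (log2 fold change 1.93, SE 0.22, edgeR FDR = 1.1e-05), while *Scn9a*, the sodium channel of mouse beta cells, fell from 58.4 ± 1.2 to 43.4 ± 3.3 CPM (log2 fold change -0.43, SE 0.05, edgeR FDR = 5.7e-07). The L-type channels *Cacna1d* and *Cacna1c*, which open in glucose-stimulated beta cells, were not called (-0.08 and -0.18). *Kcnf1* lost the call in 1 of 17 alternatives (in the 8 libraries alone, highest edgeR FDR = 0.011). *Kcnj9* lost the call in 1 of the 14 alternatives that tested it (without control replicate 4, highest edgeR FDR = 0.010). *Cacna1c* was called in 3 of 17 alternatives (without the filter, with the block and in the 8 libraries with the block, lowest edgeR FDR = 0.00091).

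Of 68 tested exocytosis genes 11 (16.2%) were raised and 10 (14.7%) lowered, against 14 and 8 with upper-quartile scaling and 11 and 15 with library size only. The larger rises were in genes of low level, with *Doc2a*, a calcium sensor, from 0.173 ± 0.11 to 0.708 ± 0.28 CPM (log2 fold change 2.04, SE 0.44, edgeR FDR = 0.00068), and *Esyt3* from 3.37 ± 0.39 to 6.82 ± 0.30 CPM (log2 fold change 1.01, SE 0.11, edgeR FDR = 3.6e-08). *Stx1a*, the syntaxin of granule fusion, rose from 12.6 ± 0.90 to 16.2 ± 1.7 CPM (log2 fold change 0.37, SE 0.08, edgeR FDR = 0.00096). Lowered genes included *Cadps2*, a granule priming factor, from 26.8 ± 1.6 to 13.9 ± 1.5 CPM (log2 fold change -0.94, SE 0.07, edgeR FDR = 1.4e-10), *Syt5* from 79.9 ± 7.6 to 55.0 ± 4.6 CPM (log2 fold change -0.54, SE 0.08, edgeR FDR = 3.2e-05) and *Rab3d* from 363 ± 4.3 to 281 ± 18 CPM (log2 fold change -0.37, SE 0.05, edgeR FDR = 2e-06). A SNARE protein gene and a calcium sensor gene of granule fusion were not called, with log2 fold changes of 0.18 for *Snap25* and 0.14 for *Syt7* (edgeR FDR = 0.019 and 0.022). *Snap25* was called in 7 of 17 alternatives (with upper-quartile scaling, by DESeq2, with the block, at 0.05, in the 8 libraries alone, in the 8 libraries with the block and without butyrate replicate 2, lowest adjusted p by edgeR or DESeq2 = 0.00019). *Syt7* was called in 6 of 17 alternatives (with upper-quartile scaling, by DESeq2, with the block, at 0.05, in the 8 libraries alone and in the 8 libraries with the block, lowest adjusted p by edgeR or DESeq2 = 0.0020).

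Of 79 tested synaptic and neurite genes 17 (21.5%) were raised and 6 (7.59%) lowered, against 8.53% and 11.4% of all genes tested. The median was 0.065, and 43 members had a positive and 36 a negative log2 fold change. Over the alternatives at 0.01 the raised count ran from 13 to 22 and the lowered count from 5 to 10. *Lingo3* rose from 1.69 ± 0.77 to 6.40 ± 0.77 CPM (log2 fold change 1.93, SE 0.20, edgeR FDR = 1.1e-07), *Homer3*, a postsynaptic scaffold, from 1.71 ± 0.18 to 4.58 ± 0.73 CPM (log2 fold change 1.42, SE 0.14, edgeR FDR = 1.5e-08), *Shank1*, another scaffold, from 11.4 ± 1.9 to 27.7 ± 2.4 CPM (log2 fold change 1.29, SE 0.16, edgeR FDR = 2.6e-05) and *Stmn3*, a microtubule regulator, from 11.9 ± 1.9 to 25.1 ± 1.7 CPM (log2 fold change 1.07, SE 0.11, edgeR FDR = 9.3e-07). *Gria3*, an AMPA receptor subunit, fell from 112 ± 20.0 to 59.5 ± 12 CPM (log2 fold change -0.91, SE 0.18, edgeR FDR = 0.0022), and *Stmn1*, a microtubule regulator of dividing cells, from 7.35 ± 2.2 to 1.35 ± 0.22 CPM (log2 fold change -2.45, SE 0.25, edgeR FDR = 4.3e-07).

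Of 287 tested solute carriers 36 (12.5%) were raised and 39 (13.6%) lowered, and the balance turned with the scaling, at 50 and 29 with upper-quartile scaling and 30 and 42 with library size only. Members of the amino acid transporter family SLC38 changed in opposite directions. *Slc38a3*, described above, was the largest rise of the list, and *Slc38a5* (ENSMUSG00000031170, chromosome X from 8271133 to 8280179), a glutamine transporter of proliferating alpha cells, the largest fall, with 91.3, 101, 126 and 108 CPM in control islets and 31.4, 34.2, 37.0 and 31.4 CPM with butyrate (log2 fold change -1.67, SE 0.13, edgeR FDR = 3.3e-07). *Slc7a14* was lowered from 595 ± 56 to 443 ± 21 CPM (log2 fold change -0.43, SE 0.07, edgeR FDR = 2.2e-05), *Slc18a1*, a vesicular monoamine transporter, from 26.7 ± 1.8 to 14.9 ± 0.34 CPM (log2 fold change -0.84, SE 0.06, edgeR FDR = 8.9e-11), and *Slc5a5*, the iodide transporter, was raised from 0.630 ± 0.36 to 2.02 ± 0.32 CPM (log2 fold change 1.71, SE 0.26, edgeR FDR = 1.3e-05).

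Receptors for hormones and neurotransmitters gave 4 raised and 5 lowered of 31. The raised count was 6 with upper-quartile scaling, 2 with library size only, 1 without control replicate 1 or butyrate replicate 2, and 2 without control replicate 2 or butyrate replicate 1 or 4. *P2ry1*, a receptor for ATP and ADP, fell from 104 ± 23 to 49.2 ± 6.3 CPM (log2 fold change -1.08, SE 0.21, edgeR FDR = 0.0019), *Oxtr*, the oxytocin receptor, from 102 ± 11 to 54.6 ± 3.6 CPM (log2 fold change -0.90, SE 0.12, edgeR FDR = 8.1e-05) and *Sstr3*, a somatostatin receptor, from 254 ± 3.9 to 199.9 ± 8.4 CPM (log2 fold change -0.35, SE 0.05, edgeR FDR = 1.7e-06). *Sstr5* fell from 0.683 ± 0.17 to 0.116 ± 0.038 CPM, a change from 11 to 20 counts per control library to 2 to 4 (log2 fold change -2.49, SE 0.45, edgeR FDR = 7e-05). *Adora1*, an adenosine receptor, rose from 16.4 ± 2.0 to 26.6 ± 1.6 CPM (log2 fold change 0.69, SE 0.08, edgeR FDR = 6.5e-07) and *Prlr*, the prolactin receptor, from 256 ± 33 to 334 ± 35 CPM (log2 fold change 0.38, SE 0.10, edgeR FDR = 0.0084). *Prlr* lost the call in 8 of 17 alternatives (with library size only, without the filter, in the 8 libraries alone and without control replicate 1 or 2 or butyrate replicate 2, 3 or 4, highest edgeR FDR = 0.049).

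Markers of the other endocrine cells moved as well. Of 11 tested alpha cell markers, 5 (45.5%) were lowered, namely *Slc38a5*, *Gc* from 177 ± 14 to 71.8 ± 12 CPM (log2 fold change -1.30, SE 0.13, edgeR FDR = 3.7e-06), *Ttr* (transthyretin) from 1129 ± 117 to 632 ± 87 CPM (log2 fold change -0.84, SE 0.12, edgeR FDR = 0.00012), and the transcription factors *Irx1* (-0.73) and *Irx2* (-0.46). *Gcg* itself was not called, at 21528 ± 1512 to 20004 ± 1499 CPM (log2 fold change -0.11, SE 0.07, edgeR FDR = 0.30), and the summed CPM of the list overlapped between groups. *Sst*, which encodes somatostatin, had 1552, 1860.4, 1573 and 1615 CPM in control islets and 2611, 2486, 2305 and 2271 CPM with butyrate (log2 fold change 0.55, SE 0.08, edgeR FDR = 2.8e-05), all butyrate libraries above all controls. *Ppy* (pancreatic polypeptide) went from 1637 ± 328 to 2475 ± 287 CPM but missed the threshold (log2 fold change 0.60, SE 0.16, edgeR FDR = 0.011). Of 9 tested delta and PP cell markers 2 were raised and 2, *Etv1* and *Sstr3*, were lowered. The summed CPM of the 9 was 4298 to 5398 in control islets and 5894 to 6980 with butyrate. *Sst* and *Ppy* made up much of this sum, and a sum without them was not tested. *Ppy* was called in 7 of 17 alternatives (with upper-quartile scaling, with library size only, by DESeq2, with the block, at 0.05, in the 8 libraries with the block and without control replicate 2, lowest adjusted p by edgeR or DESeq2 = 3.3e-10).

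Of 43 genes of defence against oxidants 11 (25.6%) were lowered and 4 (9.3%) raised with TMM scaling, but 6 and 6 with upper-quartile scaling. The count of lowered genes was 6 without control replicate 2 or butyrate replicate 4, and 7 without control replicate 3 or butyrate replicate 2 or 3. After *Gpx2*, the lowered genes changed by less than 2-fold and included *Cat* (catalase) from 8.44 ± 0.87 to 5.86 ± 0.71 CPM (log2 fold change -0.53, SE 0.10, edgeR FDR = 0.00024), *Gpx3* from 249 ± 7.5 to 179 ± 16 CPM (log2 fold change -0.48, SE 0.07, edgeR FDR = 1.6e-05), *Sod1* from 169 ± 12 to 127 ± 6.8 CPM (log2 fold change -0.42, SE 0.07, edgeR FDR = 2.5e-05) and *Gsr* from 76.4 ± 5.1 to 61.0 ± 2.3 CPM (log2 fold change -0.33, SE 0.05, edgeR FDR = 2.5e-05). *Gsta4*, a glutathione transferase, was raised from 0.459 ± 0.16 to 1.80 ± 0.35 CPM (log2 fold change 1.98, SE 0.27, edgeR FDR = 2.6e-06) and *Mt2*, a metallothionein, from 2.20 ± 0.78 to 5.68 ± 0.79 CPM (log2 fold change 1.36, SE 0.29, edgeR FDR = 0.0018).

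Immediate early genes, which stimuli and stress switch on within minutes, had 9 (39.1%) of 23 tested lowered, 1 raised and a median of -0.48. *Egr1* had 35.2, 26.7, 27.9 and 17.8 CPM in control islets and 9.14, 9.33, 9.14 and 5.72 CPM with butyrate (log2 fold change -1.70, SE 0.21, edgeR FDR = 4.9e-05), with no overlap. *Fosb* fell from 5.53 ± 0.59 to 2.05 ± 0.50 CPM (log2 fold change -1.44, SE 0.19, edgeR FDR = 1.7e-06), *Fos* from 5.90 ± 1.4 to 3.07 ± 0.99 CPM (log2 fold change -0.97, SE 0.25, edgeR FDR = 0.0071) and *Klf4* from 6.08 ± 0.34 to 3.24 ± 0.30 CPM (log2 fold change -0.91, SE 0.12, edgeR FDR = 2.2e-06), and *Ier3* rose from 3.81 ± 0.29 to 6.29 ± 0.85 CPM (log2 fold change 0.72, SE 0.14, edgeR FDR = 0.00024). Of 38 endoplasmic reticulum stress and folding genes 5 were raised and 5 lowered, and the split depended on the scaling, at 8 and 5 with DESeq2 size factors, 11 and 4 with upper-quartile scaling and 7 and 13 with library size only. The lowered count was 2 without control replicate 2 or butyrate replicate 2 and 3 without butyrate replicate 1 or 4. The largest of these changes was *Derl3*, a protein of misfolded protein degradation, with 53.5, 75.0, 75.7 and 72.3 CPM in control islets and 14.8, 13.8, 32.0 and 23.2 CPM with butyrate (log2 fold change -1.73, SE 0.22, edgeR FDR = 5.4e-05), the 4 butyrate libraries all below the controls and spread more than 2-fold. *Sdf2l1* (-0.53), *Manf* (-0.32) and *Hspa5* (BiP, -0.28) were lowered as well, whereas *Ern1* (IRE1α, 0.43) and *Canx* (calnexin, 0.30) were raised. *Fos* lost the call in 6 of 17 alternatives (without control replicate 1, 2 or 3 or butyrate replicate 1, 2 or 4, highest edgeR FDR = 0.020). *Derl3* lost the call in 1 of 17 alternatives (in the 8 libraries with the block, highest edgeR FDR = 0.012). *Sdf2l1* lost the call in 7 of 17 alternatives (with the block, in the 8 libraries alone, in the 8 libraries with the block and without control replicate 2 or butyrate replicate 1, 2 or 4, highest edgeR FDR = 0.031). *Hspa5* lost the call in 2 of 17 alternatives (without control replicate 2 or butyrate replicate 2, highest edgeR FDR = 0.013).

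Energy metabolism changed by less than 2-fold in nearly all called genes. Glycolysis had 6 (21.4%) of 28 genes raised, with *Aldoc* from 9.86 ± 0.81 to 16.3 ± 2.6 CPM (log2 fold change 0.72, SE 0.10, edgeR FDR = 1.8e-06), *Pfkp* from 29.2 ± 2.2 to 37.9 ± 4.7 CPM (log2 fold change 0.38, SE 0.08, edgeR FDR = 0.0015) and *Eno2* from 46.4 ± 2.0 to 56.4 ± 0.95 CPM (log2 fold change 0.28, SE 0.05, edgeR FDR = 4.9e-05), while the abundant *Pkm*, *Aldoa* and *Gapdh* were not called (-0.09, -0.19 and -0.05). The citric acid cycle and pyruvate list had 9 (28.1%) of 32 lowered and 3 raised, but 6 and 5 with upper-quartile scaling, and the raised count was 1 without any 1 of the control replicates or without butyrate replicate 2 or 3. It included *Idh1* from 69.7 ± 9.2 to 43.9 ± 1.6 CPM (log2 fold change -0.67, SE 0.10, edgeR FDR = 6.7e-05), *Me1* from 26.0 ± 1.5 to 17.5 ± 1.6 CPM (log2 fold change -0.56, SE 0.07, edgeR FDR = 9.9e-07) and, raised, *Pcx* (pyruvate carboxylase) from 121 ± 5.1 to 148 ± 5.1 CPM (log2 fold change 0.30, SE 0.05, edgeR FDR = 1.7e-05). Of 73 nuclear subunits of oxidative phosphorylation 9 (12.3%) were lowered and 2 raised, with 5 lowered under upper-quartile scaling and 16 with library size only. Of the 13 mitochondrially encoded genes listed 7 were tested, of which 0 were called by edgeR, 0 had an unadjusted p under 0.05 and 0 were called by DESeq2. Of all 12 tested genes of the mitochondrial chromosome, with those outside the list, 2 were raised and 0 lowered. Sterol and fatty acid synthesis had 10 (25.0%) of 40 lowered and 4 raised. *Nsdhl* (-0.55), *Ebp* (-0.47) and *Idi1* (-0.56) of the sterol pathway were lowered, and *Acacb*, an acetyl-CoA carboxylase, rose from 1.56 ± 0.13 to 5.37 ± 0.25 CPM (log2 fold change 1.78, SE 0.15, edgeR FDR = 7.7e-10). Fatty acid oxidation genes were raised and lowered 5 times each of 39, with *Pdk4*, a brake on pyruvate dehydrogenase, from 27.5 ± 2.7 to 42.0 ± 1.6 CPM (log2 fold change 0.61, SE 0.06, edgeR FDR = 4.5e-08) and *Cpt1a*, the entry enzyme of mitochondrial oxidation, lowered from 91.5 ± 5.0 to 78.8 ± 3.0 CPM (log2 fold change -0.22, SE 0.05, edgeR FDR = 0.00073). Of 76 ribosomal protein genes 7 were raised and 2 lowered, all by less than 0.3 on the log2 scale, and the raised count was 12 with upper-quartile scaling, 4 without control replicate 1 or 4 or butyrate replicate 1, and 3 without butyrate replicate 3. The count of raised fatty acid oxidation genes was 3 without control replicate 4 or butyrate replicate 2 or 3. *Aldoa* was called in 5 of 17 alternatives (with library size only, without the filter, with the block, in the 8 libraries alone and in the 8 libraries with the block, lowest edgeR FDR = 0.00017). *Idi1* lost the call in 7 of 17 alternatives (with upper-quartile scaling and without control replicate 1 or 2 or butyrate replicate 1, 2, 3 or 4, highest edgeR FDR = 0.034).

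Antigen presentation genes went both ways in these islets without added cytokine, and the share of interferon genes lowered was near that of all genes. Of 27 MHC and immunoproteasome genes, 7 (25.9%) were lowered and 2 raised, with 0 raised by edgeR without control replicate 1 or 3 or butyrate replicate 1. The median of the list was 0.07, and 15 members had a positive and 12 a negative log2 fold change. *Psmb10*, an immunoproteasome subunit, had 14.3, 13.3, 12.5 and 12.9 CPM in control islets and 5.42, 4.09, 4.60 and 4.82 CPM with butyrate (log2 fold change -1.49, SE 0.10, edgeR FDR = 5.3e-12), the groups far apart. *Tapbpl* from 59.8 ± 3.0 to 34.7 ± 0.79 CPM (log2 fold change -0.78, SE 0.05, edgeR FDR = 5e-12), *Erap1* from 76.0 ± 1.7 to 45.5 ± 2.0 CPM (log2 fold change -0.74, SE 0.04, edgeR FDR = 1.6e-12) and *Tapbp* from 158 ± 11 to 107 ± 4.4 CPM (log2 fold change -0.56, SE 0.05, edgeR FDR = 3.5e-09), which trim and load peptides, were also lowered, and the class I heavy chains *H2-K1* (0.07) and *H2-D1* (0.16) were not called. Of 36 interferon response genes 6 (16.7%) were lowered, against 11.4% of all genes tested, and the median was -0.09. *Irf7* fell by the most among them (log2 fold change -1.06, SE 0.20, edgeR FDR = 0.00021). Among 54 chemokine, cytokine, IL-1 and NF-κB genes 6 were raised and 4 lowered, and 3 were raised without control replicate 4 or butyrate replicate 2. *Socs3* (log2 fold change 0.79, SE 0.08, edgeR FDR = 5.3e-08) and *Socs2* (log2 fold change 0.70, SE 0.10, edgeR FDR = 2.7e-06), feedback inhibitors of cytokine signalling, were raised, and *Il1b* from 2.31 ± 0.50 to 0.720 ± 0.14 CPM (log2 fold change -1.68, SE 0.24, edgeR FDR = 4.9e-06), *Irak1* (-0.55) and *Nfkbia* (-0.41) were lowered. *Il1r1*, the IL-1 receptor, was not called, at 622 ± 35 to 608 ± 18 CPM (log2 fold change -0.03, SE 0.05, edgeR FDR = 0.69). *H2-D1* was called in 6 of 17 alternatives (with upper-quartile scaling, by DESeq2, with the block, at 0.05, in the 8 libraries alone and in the 8 libraries with the block, lowest adjusted p by edgeR or DESeq2 = 0.00048).

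Of 27 macrophage and leukocyte markers 23 passed the filter, and the summed CPM of the list was 151 to 162 in control islets and 104 to 121 with butyrate. It was mainly *C1qa*, a complement gene that fell from 111 ± 11 to 77.6 ± 11 CPM (log2 fold change -0.52, SE 0.12, edgeR FDR = 0.0045) and was the 1 marker of the list called, against 5 in the fit of the 8 libraries alone. Without it the sum was 36.2 to 51.8 in control islets and 28.9 to 43.7 with butyrate, so the groups overlapped. Of the 23 markers 17 had a negative and 6 a positive log2 fold change, with a median of -0.275. The defining marker *Adgre1* (F4/80) had 0.933, 1.71, 2.29 and 2.23 CPM in control islets and 0.904, 0.711, 1.41 and 0.903 CPM with butyrate, above 0 in every library, and *Lyz2* went from 10.1 ± 2.2 to 8.39 ± 3.0 CPM. The part that resident macrophages have in the levels of *Il1b* and the other immune genes was not tested. Of 18 endothelial markers 11 passed the filter, and the sum of the list was 18.5 to 20.0 in control islets and 23.2 to 25.9 with butyrate, with *Egfl7* raised from 1.05 ± 0.29 to 2.89 ± 0.23 CPM (log2 fold change 1.47, SE 0.20, edgeR FDR = 1.7e-06) and *Pecam1* not called (2.08 ± 0.34 to 1.97 ± 0.15 CPM). The sums of fibroblast, acinar, duct and Schwann cell markers overlapped between groups. *C1qa* lost the call in 5 of 17 alternatives (without control replicate 1 or 2 or butyrate replicate 2, 3 or 4, highest edgeR FDR = 0.017). *Adgre1* was called in 2 of 17 alternatives (with the block and in the 8 libraries with the block, lowest edgeR FDR = 0.00082).

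Matrix and growth factor genes changed in single members. *Lama5* (ENSMUSG00000015647, chromosome 2 from 180176373 to 180225859), a laminin chain of basement membranes, had 5.69, 5.80, 6.35 and 6.76 CPM in control islets and 21.1, 25.2, 20.6 and 25.2 CPM with butyrate (log2 fold change 1.91, SE 0.09, edgeR FDR = 1.6e-14), and it was the 1 gene called among 11 laminin chains. *Col9a2* rose from 4.99 ± 0.42 to 15.4 ± 0.97 CPM (log2 fold change 1.63, SE 0.10, edgeR FDR = 3.1e-12) and *Col6a3* fell from 15.4 ± 2.4 to 8.10 ± 1.2 CPM (log2 fold change -0.93, SE 0.15, edgeR FDR = 7.3e-05), among 41 collagens with 3 raised and 2 lowered. The TGFβ and BMP list had 11 (23.9%) of 46 raised and 3 lowered, with a median of 0.09, and the raised count was 7 without control replicate 3 and 6 without butyrate replicate 1. Its ligands and inhibitors rose most, *Gdf11* from 2.80 ± 0.72 to 10.2 ± 0.42 CPM (log2 fold change 1.86, SE 0.13, edgeR FDR = 1.5e-11), *Tgfb1* from 1.03 ± 0.068 to 2.95 ± 0.39 CPM (log2 fold change 1.53, SE 0.17, edgeR FDR = 8.8e-08) and *Fstl3*, an antagonist of activins, from 0.817 ± 0.21 to 2.89 ± 0.30 CPM (log2 fold change 1.82, SE 0.21, edgeR FDR = 1.3e-07), while the target genes *Id1* (-0.85) and *Id4* (-0.94) were lowered. Of 42 genes of the Wnt pathway 5 were raised and 3 lowered (3 raised without butyrate replicate 2), with *Lrp5*, a coreceptor, from 31.3 ± 2.1 to 48.1 ± 5.0 CPM (log2 fold change 0.62, SE 0.12, edgeR FDR = 0.0010) and *Apcdd1*, an inhibitor, from 4.07 ± 0.39 to 1.43 ± 0.48 CPM (log2 fold change -1.50, SE 0.20, edgeR FDR = 2e-06). Hox and germline genes, mostly silent in adult islets, gave few calls. Of 39 Hox genes 17 passed the filter, of which 0 were called by edgeR, 0 had an unadjusted p under 0.05 and 0 were called by DESeq2, and of 38 germline genes 14 passed it, with *Spo11* and *Syce2* raised and *Tex15* lowered. *Tex15* lost the call in 11 of 17 alternatives (with DESeq2 size factors, with upper-quartile scaling, with library size only, by DESeq2, in the 8 libraries alone and without control replicate 2, 3 or 4 or butyrate replicate 1, 3 or 4, highest edgeR FDR = 0.052).

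The clock list had 3 raised and 5 lowered of 20, and 3 and 3 with upper-quartile scaling or without butyrate replicate 4. The remaining lists had 6 calls or fewer each. They were the BCL2 family and death genes (3 and 3 of 32, with the BH3 genes *Bik*, *Bid* and *Bmf* raised and *Pmaip1*, *Birc2* and *Xiap* lowered), integrins (3 and 1 of 27, with 1 raised without control replicate 2 or 3 or butyrate replicate 2 or 4), complement (2 and 1 of 23), claudins and connexins (2 and 2 of 17), matrix proteases and inhibitors (2 and 1 of 29) and cadherins (1 and 3 of 73). *Cdh1* (E-cadherin), the 1 cadherin raised, went from 375 ± 23 to 476 ± 35 CPM (log2 fold change 0.34, SE 0.05, edgeR FDR = 1.1e-05). The 34 genes that the study names for butyrate had 14 raised and 4 lowered, but the study chose them on these samples, so the count is no independent evidence of a direction. *Xiap* lost the call in 8 of 17 alternatives (with upper-quartile scaling and without control replicate 1, 2 or 3 or butyrate replicate 1, 2, 3 or 4, highest edgeR FDR = 0.039).

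By position, the X chromosome had the highest share of lowered genes among the chromosomes with more than 12 tested genes. Of its 534 tested genes, 115 (21.5%) were lowered and 34 (6.37%) raised, while lowered shares of the autosomes lay between 9.57% and 13.8%. The comparison was made after the values were seen and was not tested. The X-linked changes were small, with a median over all tested X-linked genes of -0.05, and depended on the scaling, with 86 lowered and 50 raised X-linked genes and a median of 0.00 under upper-quartile scaling.

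The effect of butyrate was set beside its effect in the 8 libraries with IL-1β, which share no library with those above. With the cytokine, butyrate changed 3629 genes (19.5%) against IL-1β alone. Both comparisons called 2503 genes in the same direction, 67.7% of those changed without IL-1β and 69.0% of those changed with it, and 3 in opposite directions. Of the 3697 genes changed without IL-1β, 3647 (98.7%) had the same sign with it. A test of the difference between both effects called 18 genes (0.0968%), of which 8 were among the 3697, and 11 genes without butyrate replicate 1. Those 8 are named here after their values were seen. *Alcam*, an adhesion molecule, was lowered without IL-1β (-0.24) and raised with it (0.35), and *Aqp4*, a water channel, was raised (0.46) and then lowered (-0.32). *Olfml3* rose without IL-1β (log2 fold change 1.07, SE 0.16, edgeR FDR = 5.7e-06) and had -0.30 with it, and *Phactr1*, raised without it (0.33), had -0.17. *Tmem255a*, *Mat1a*, *Cadps2* and *St3gal1* were lowered without IL-1β, by 0.83, 0.58, 0.94 and 1.58 on the log2 scale, and had smaller values with it, -0.10, -0.15, -0.31 and -0.93. Cell cycle genes were lowered there too, with -2.42 for *Mki67* and -3.00 for *Nek2*, as did *Gpx2* (-2.96), *Nptx2* (-3.26) and *Kcnk16* (-1.59), and *Pianp* (3.08), *Slc38a3* (3.26) and *Aldh1a3* (1.75) were raised there too.

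**Figure D5:**
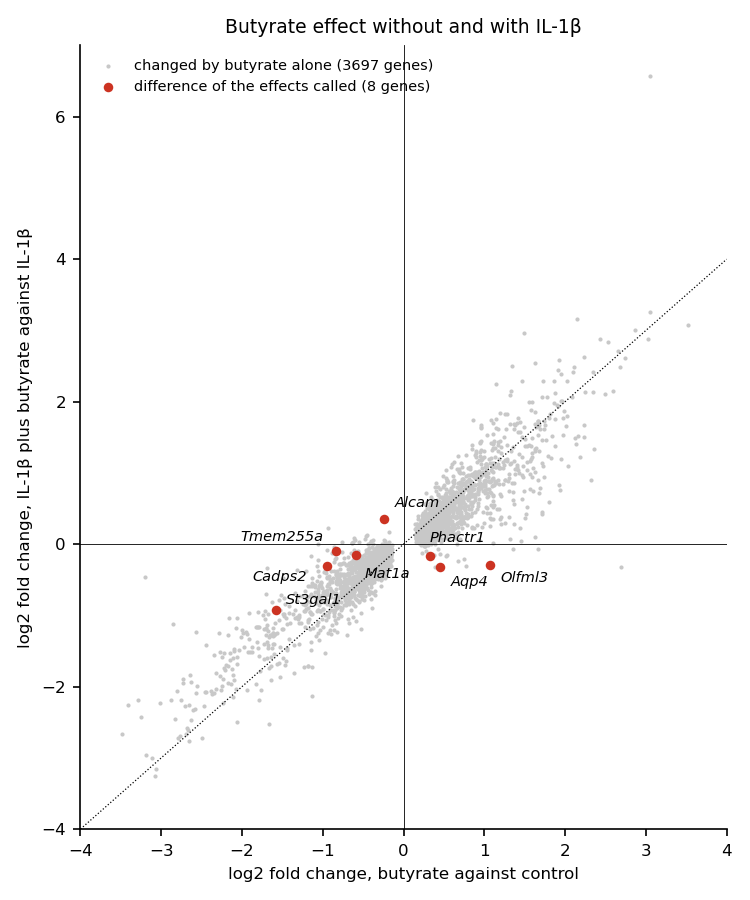
Log2 fold change with butyrate against control (horizontal axis) and with IL-1β plus butyrate against IL-1β (vertical axis) for the 3697 genes changed without IL-1β (grey), with the dotted line marking equal effects. The 8 genes whose effects differed past the threshold are in red and named, and 3647 of the genes lie in the quadrants where both effects have the same sign.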

How the data were processed

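RNA from pooled islets was sequenced in 16 libraries, 4 for each condition. The deposited values are raw gene counts that the authors made with STAR 2.5.3a on GRCm38 from single-end reads. The strand setting and the annotation release are not given in the sources used here. The submitters' processing notes also name FastQC 0.11.7, MultiQC 1.7, bcl2fastq 2.19.1 and DESeq2. Of 52636 genes, 10560 had no count, and positions came from GENCODE M21 (52489 identifiers matched).

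Groups followed the labels. All 16 libraries were fitted in 1 edgeR 4.0.16 quasi-likelihood model (R 4.3.3) with TMM scaling, filterByExpr and no block, and the call was an adjusted p (Benjamini-Hochberg, over the 18587 genes tested) under 0.01. CPM use TMM library sizes, log2 CPM a prior count of 2. The fit was tested on simulated data. Totals of 20148282 to 24822759 counts set the precision. Replicates of a group differed by more than sampling noise (chi-square per gene of 1.72 to 6.73). Alternatives were the scaling, DESeq2 1.42.0, no filter, the replicate block, the threshold, the 8 libraries alone and leaving out each library.

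The members and the 54 lists were chosen with earlier results of these data known. Named genes were the 12 largest rises and falls (average log2 CPM of 1 or more, groups apart), the genes the study names for butyrate, up to 5 called members each way and the 3 most abundant members of each list, and genes at no more than 3 counts per library in 1 group. Genes outside this rule are named as chosen after their values were seen. A few genes are not reported here.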

Additional observations from a re-analysis of the deposited data

Results flagged for a closer look

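Groups of 4 libraries were examined for each named gene and for the total counts, 448 groups in all. In 21 of them, all of named genes, the highest or lowest library stood apart from the other 3 by more than Dixon's critical value. Chance flags about 1 group in 20. Butyrate replicate 1 stood apart for *H2-D1* (311 CPM, above the others), *Prom1* (123 CPM, below the others) and *Tapbp* (114 CPM, above the others). Butyrate replicate 2 stood apart for *Slco1a5* (29.8 CPM, above the others). Butyrate replicate 3 stood apart for *Sirt4* (22.4 CPM, above the others) and *Syce2* (6.9 CPM, above the others). Butyrate replicate 4 stood apart for *Bub3* (47.7 CPM, below the others), *Ebp* (19.3 CPM, below the others), *Egr1* (5.72 CPM, below the others), *Fgf11* (7.44 CPM, below the others), *Hdac2* (88.8 CPM, below the others), *Phlda3* (2.06 CPM, below the others) and *Sod1* (117 CPM, below the others). Control replicate 1 stood apart for *Birc2* (75.6 CPM, below the others), *Ccnd1* (190.0 CPM, above the others), *Derl3* (53.5 CPM, below the others), *Gdf11* (1.73 CPM, below the others), *Gria3* (142 CPM, above the others) and *Rpa1* (81.7 CPM, below the others). Control replicate 2 stood apart for *Id4* (3.54 CPM, above the others) and *Kcnq1* (0.75 CPM, above the others). The gaps were spread over 6 libraries and their part in the group differences was not tested beyond leaving each library out.

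The effect of butyrate with IL-1β minus its effect without it differed from 0, by edgeR's test of the difference, for 8 of the genes changed without IL-1β. On the log2 scale the difference was 0.59 (SE 0.08, edgeR FDR = 0.00015) for *Alcam*, -0.78 (SE 0.13, edgeR FDR = 0.0073) for *Aqp4*, 0.63 (SE 0.10, edgeR FDR = 0.0012) for *Cadps2*, 0.44 (SE 0.07, edgeR FDR = 0.0012) for *Mat1a*, -1.37 (SE 0.21, edgeR FDR = 0.0014) for *Olfml3*, -0.50 (SE 0.09, edgeR FDR = 0.0057) for *Phactr1*, 0.66 (SE 0.09, edgeR FDR = 0.00016) for *St3gal1* and 0.74 (SE 0.09, edgeR FDR = 9.5e-05) for *Tmem255a*.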

How the results depend on the processing

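The number of genes changed by butyrate stayed within 1.5 times 3697 under every alternative, and none of the 3697 changed sign in any of them. It was 3702 with DESeq2 size factors, 3773 with upper-quartile scaling, 3831 with library size only, 3781 by DESeq2, 3928 without the filter on low counts and 3965 with the 8 libraries alone, and it ran from 2905 (without butyrate replicate 2) to 3235 (without butyrate replicate 1) when 1 library was left out. Between 2865 (without butyrate replicate 2) and 3638 (with DESeq2 size factors) of the 3697 genes were also called in these fits. Raised genes made up 35.1% of the changed genes with library size only and 58.5% with upper-quartile scaling. The count of genes whose butyrate effect differed with IL-1β, 18, was 52 by DESeq2, 95 without the filter, 132 with the replicate block and 39 at an adjusted p under 0.05, and 11 to 25 when 1 library was left out, and the cause was not tested. Of the 192 called genes named, 171 kept the call in every alternative that tested them, by edgeR and DESeq2. Another 21 lost it in at least 1, and 0 reversed. Some genes with few counts were not tested in all 17, such as *Gipc3* and *Notum*, each tested in 14. Of the 31 genes named without a call, 10 were called in at least 1 alternative. A replicate block gave 4879 changed genes, and 4932 in the 8 libraries alone. With the block the lists also held more calls, among them 6 of 23 macrophage markers lowered (7 in the 8 libraries with the block) against 1, 8 of 11 alpha cell markers lowered against 5, 5 of 9 delta and PP cell markers raised against 2, 19 exocytosis genes lowered against 10, 15 subunits of oxidative phosphorylation lowered against 9, 12 ribosomal protein genes raised against 7, 11 folding genes raised against 5 and 8 hormone and neurotransmitter receptors raised against 4. Without the filter 15 of these subunits and 11 folding genes were lowered. No label says that a number marks a shared experiment. The column names do run through the 4 conditions of a number before the next number. Same-numbered control and butyrate libraries deviated together with r = 0.241, 0.091, 0.0535 and 0.12, all above 0. Butyrate replicates 1, 2 and 4 correlated best with the control of the same number, and butyrate replicate 3 with control replicate 4 (0.13). Replicate 1 of both groups stood apart on the second principal component. Whether the numbers pair the libraries was not settled. The main fit used no block, so a gene not called in it may be called with the block. Genes with few counts limit the text, as a fold change of a gene at 1 to 3 counts per library cannot be measured at this depth.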
